A study of Mus musculus with 2 samples.

Results

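Apelin, its receptor, angiopoietin-2, the receptors TIE2 and TIE1, the phosphatase VE-PTP and endocan are 7 proteins that act between and within the cells of growing vessels. Their genes, Apln, Aplnr, Angpt2, Tek, Tie1, Ptprb and Esm1, were taken by symbol from the count matrices, and all 7 were found among the 32285 genes. They are described here in endothelial cells of mouse lymph nodes, in 6 classes of vessel cell: tip-like capillary, other capillary, venous, high endothelial, arterial and lymphatic.

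Apelin is a secreted peptide made by sprouting endothelial cells, and its G-protein-coupled receptor APJ, the product of Aplnr, is carried by capillary and venous endothelium. Angiopoietin-2, a secreted ligand stored in endothelial granules, binds TIE2 (Tek) and often opposes angiopoietin-1, which is made by cells around the vessel. TIE1 is an orphan relative that pairs with TIE2, VE-PTP (Ptprb) takes phosphate off TIE2 and off VE-cadherin complexes, and endocan (Esm1) is a secreted proteoglycan used as a tip-cell marker. In lymph nodes, high endothelial venules are the specialised postcapillary vessels through which lymphocytes leave the blood.

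Single-cell RNA sequencing was run on sorted endothelial cells from mice that had all been given tamoxifen. The 4 groups are the combinations of genotype, WT or Xbp1-KO, with site, peripheral or mesenteric nodes. Each group was present once in each of 2 droplet libraries, marked by a hashtag antibody, so every group has n = 2 pools and there are 8 pools in all. The labels do not state the Cre line, the deleted part of Xbp1, the number of animals per pool or their age. Nor do they say which pools share animals. P-values measure the spread between these pools, which may be partly technical.

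The 8 pools kept 409 to 2294 cells each, 9286 in all, and 3 cell barcodes occurred in both libraries. Xbp1 itself was found at 129 to 251 CPM (the share of all UMIs of those cells, scaled to a common total; UMIs are the tags that mark single captured RNA molecules) in the WT pools and 61.8 to 134 CPM in the Xbp1-KO pools, over all 6 classes; a 3′ count does not show whether the deleted part was read. Xist, which is transcribed from the inactive X chromosome of female cells, was found in 73.2% to 82.5% of the cells in both Xbp1-KO pools of library 1, and in 76.8% to 85.4% of those in both WT pools of library 2. The other 4 pools had it in 0.115% to 1.77% of their cells. Genotype is therefore crossed with Xist between the libraries: within either library alone the genotypes cannot be told apart from this difference, while the mean over both libraries balances it where all 8 pools are present. That is not so in venous cells, whose peripheral sums come from library 1 alone, nor in high endothelial cells, which lack 1 peripheral sum of library 2; genotype and genotype by tissue values in these 2 classes are not balanced for Xist.

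Cells were clustered with the 7 genes, the pathway lists and the sex-linked genes left out of the genes that define clusters, so none of the 7 placed a cell in its class directly. Genes that vary with them were not left out, so the tests between classes describe the size of a difference against the spread over pools, not whether the classes exist. The tip-like class is 1 cluster of 344 cells, with 9 of the 11 tip markers found in at least 10% of its cells and with Prnd, Fscn1, Lcp2 and Cxcr4 among its leading genes. The other capillary class is what remained of the capillary pool, 3498 cells in 7 clusters, in which all 6 capillary markers were detected. Of these clusters, those led by Timp4 and Cyp26b1 had a capillary marker among their 10 leading genes. Those led by Dnajb1 (heat-shock genes), Serpine2 and Cxcl10 (interferon response genes) scored nearest to the arterial markers. The cluster led by Cxcl1 (immediate early and chemokine genes) scored nearest to the tip markers. The cluster led by Penk had no capillary marker among its 10 leading genes, and its score for the nearest list, capillary, was below 0 (-0.157). The arterial class holds 671 cells, the high endothelial class 368, the venous class 140 and the lymphatic class 3733. The endothelial markers Pecam1, Cdh5 and Kdr were each found in at least 10% of the cells of all 6 classes, and their summed level was 1700 to 4551 CPM in every class and pool.

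Counts were summed per class and pool, and CPM is the share of those summed UMIs. Sums of under 5 cells were left out, which removed both peripheral venous pools of library 2 and the Xbp1-KO peripheral high endothelial pool of library 2. Depth sets the precision: the tip-like sums held 55029 to 337458 UMIs, against 540755 to 2064002 in the other capillary class.

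Apart from Tek and Tie1, the genes lie on separate chromosomes. Positions are whole-gene spans in GENCODE M21 on GRCm38. Apln (ENSMUSG00000037010) is at chrX:48025146-48034853 on the minus strand with 3 exons, and is the X-linked member. Aplnr (ENSMUSG00000044338) is a gene of 1 exon at chr2:85136225-85139923 on the plus strand. Angpt2 (ENSMUSG00000031465) spans chr8:18690263-18741562 on the minus strand with 9 exons. Tek (ENSMUSG00000006386) at chr4:94739289-94874976 on the plus strand and Tie1 (ENSMUSG00000033191) at chr4:118471191-118490061 on the minus strand share a chromosome and have 23 exons each. Ptprb (ENSMUSG00000020154) has 32 exons at chr10:116275523-116389535, and Esm1 (ENSMUSG00000042379) has 3 at chr13:113209659-113218098, both on the plus strand.

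Promoters are shown for the 4 members present in the RefSeq promoter table used here (build GRCm38.p6), from 250 bases before to 50 bases after the start, 5′ to 3′ on the gene's strand. They are the promoters of the ligand and of the proteoglycan that are near or at 0 in some classes and not in others, and of both receptors, which were found in every class. Capitals mark the ETS core GGAA or its reverse complement TTCC and the SOX core ACAAT or its reverse complement ATTGT, in both of which a match is a description and not a binding site.
Apln, chrX:48034804-48035103, minus strand: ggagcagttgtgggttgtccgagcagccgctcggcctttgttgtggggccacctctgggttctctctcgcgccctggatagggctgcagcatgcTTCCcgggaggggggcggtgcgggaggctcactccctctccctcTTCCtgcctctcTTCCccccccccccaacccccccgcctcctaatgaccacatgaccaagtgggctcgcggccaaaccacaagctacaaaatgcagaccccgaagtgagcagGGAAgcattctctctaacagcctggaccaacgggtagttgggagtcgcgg
Esm1, chr13:113209409-113209708, plus strand: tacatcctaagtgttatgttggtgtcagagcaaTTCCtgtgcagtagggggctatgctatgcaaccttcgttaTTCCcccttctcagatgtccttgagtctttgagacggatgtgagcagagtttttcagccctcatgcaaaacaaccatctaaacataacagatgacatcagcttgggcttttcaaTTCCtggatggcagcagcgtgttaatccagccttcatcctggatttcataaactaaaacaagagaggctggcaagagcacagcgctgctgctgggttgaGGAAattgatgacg
Tek, chr4:94739039-94739338, plus strand: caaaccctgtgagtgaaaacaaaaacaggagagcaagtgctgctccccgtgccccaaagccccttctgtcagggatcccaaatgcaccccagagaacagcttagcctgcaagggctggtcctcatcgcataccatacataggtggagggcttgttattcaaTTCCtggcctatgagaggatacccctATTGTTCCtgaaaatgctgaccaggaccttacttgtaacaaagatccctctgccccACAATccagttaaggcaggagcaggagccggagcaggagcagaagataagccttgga
Tie1, chr4:118489800-118490099, minus strand: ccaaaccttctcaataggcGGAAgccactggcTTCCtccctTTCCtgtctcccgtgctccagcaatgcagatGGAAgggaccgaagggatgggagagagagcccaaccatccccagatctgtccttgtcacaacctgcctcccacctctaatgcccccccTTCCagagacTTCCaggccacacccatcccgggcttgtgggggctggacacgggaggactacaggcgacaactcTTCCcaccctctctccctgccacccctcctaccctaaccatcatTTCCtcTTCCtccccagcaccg
The ETS core occurred 4 times in the Apln promoter, 4 times in that of Esm1, 2 times in that of Tek and 9 times in that of Tie1. It occurred at least once in 96.0% of the 32851 promoters of the same length. The SOX core occurred 2 times in the Tek promoter, 1 of them sharing its last base with an ETS core, and in none of the other 3 windows; 31.0% of all promoters held it. The letters GTAAACA (a FOX site, in 3.65% of promoters) and ACGTG (the core of a hypoxia response element, in 19.6%) were searched on both strands and were in none of the 4 windows.

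**Figure D1:**
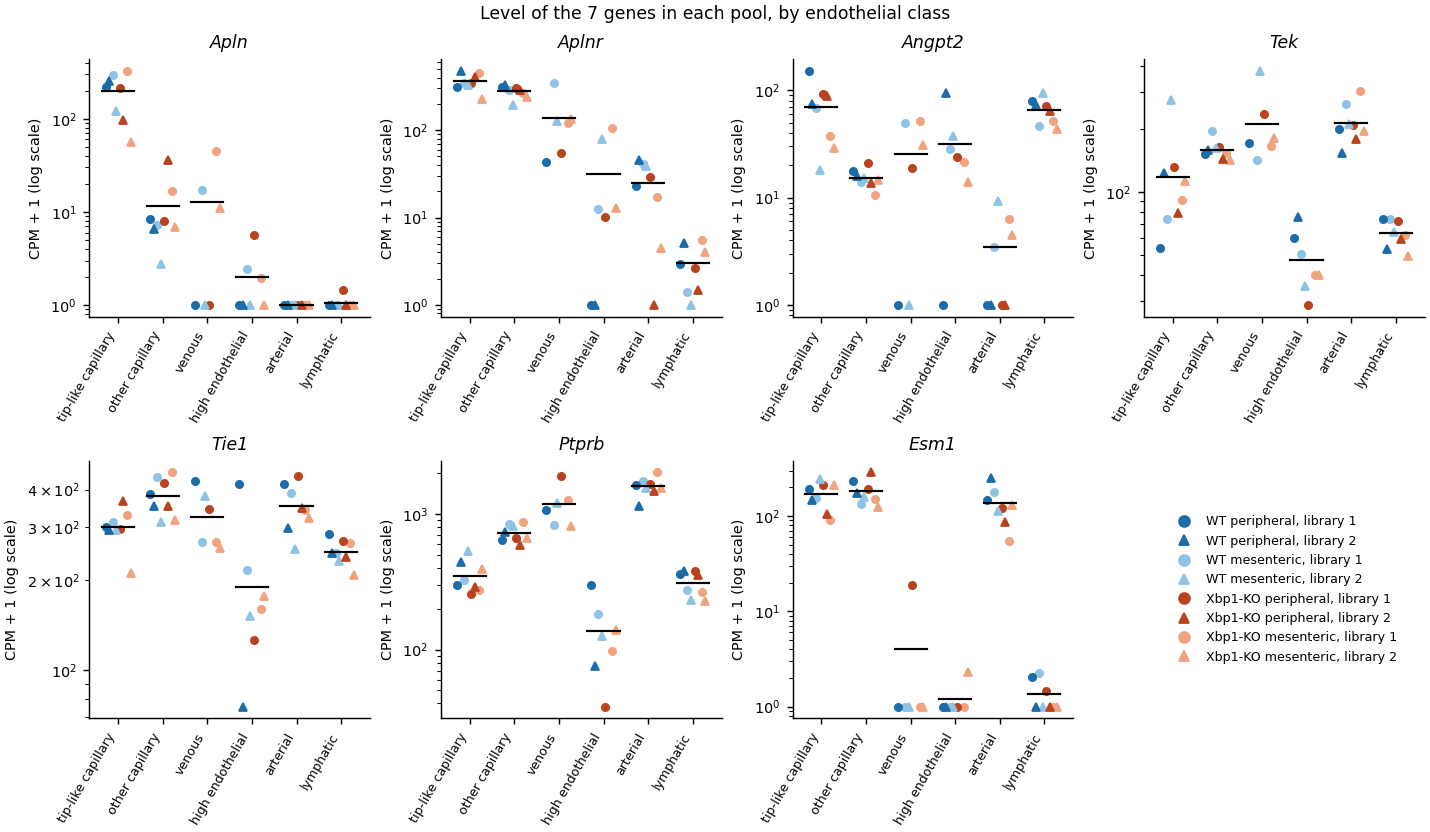
Each point is the level of 1 gene in 1 pool and class, in CPM plus 1 on a log axis; colour gives genotype and node, shape the library, and the black line the mean over pools. Apln stands out in the tip-like class (56.0 to 327 CPM), Esm1 is near 0 in venous, high endothelial and lymphatic cells, and Ptprb is lowest in high endothelial cells.

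Apln, the ligand, was concentrated in the tip-like class. It had 239 UMIs in 77 of the 344 tip-like cells (22.4%, exact binomial 95% interval 18.1% to 27.2%), against 107 UMIs in 46 of 3498 other capillary cells (1.32%, interval 0.964% to 1.75%). When every cell was thinned to 2000 UMIs, the shares were 19.9% of 276 cells and 1.02% of 2453 cells. As background, 3 of 3733 lymphatic cells, which held more UMIs per cell (median 5254 against 3002 in tip-like cells), had an Apln UMI.

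Per pool, Apln in the tip-like class had a lowest value of 56.0 CPM, a median of 216 and a highest of 327, and in the other capillary class 1.77, 6.67 and 35.3 CPM. The ranges did not overlap, and Apln was higher in the tip-like sum of every one of the 8 pools. The fitted log2 difference was 4.29 ± 0.28 (SE), a fold of 19.5, with an adjusted p of 2.0e-16 (edgeR's quasi-likelihood test with pool as a block, Benjamini-Hochberg over 6107 genes, as in all class contrasts here). Apln entered this fit through its tip-like sums, where it is high, so this p-value is not used as support. The separation is described by the pool values above. Of all genes, 15.1% passed the threshold of 0.05 in this contrast, and 5 of the 7 members did, Apln among them. All 14 dissociation response genes, such as Fos and Nr4a1, which tissue digestion can induce, were lower in tip-like than in other capillary cells (14 of 14 passed, median log2 difference -0.815); their part in the member differences of this contrast was not tested. The lowest tip-like value, in the Xbp1-KO mesenteric pool of library 2, came from 4 UMIs in 19 cells. That pool also had the highest summed level of the dissociation response genes among the tip-like sums, 39488 CPM against 10780 to 22103 CPM in the other 7. The same pool was the highest in every other class too, at 20916 CPM in high endothelial to 58129 CPM in other capillary cells. What this does to the genotype and node values was not tested.

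In arterial, high endothelial and lymphatic cells Apln was at or near the limit of detection. In the arterial class no UMI of 1905475 was from Apln, where 3 counts over the class would have been 1.57 CPM, so Apln was at least 132-fold higher in tip-like and at least 6.71-fold higher in other capillary cells. High endothelial cells held 3 Apln UMIs of 3377397, a level 234-fold below tip-like cells with a counting interval of 79.2 to 1140. Lymphatic cells held 3 of 20171023, 1400-fold below tip-like cells (interval 473 to 6830). These intervals cover counting error only. The venous class had 12 UMIs in 4 of 140 cells, a mean of 11.8 ± 17.3 CPM (SD, n = 6), and did not differ from the other capillary class beyond its spread (log2 difference 0.90 ± 0.66, adjusted p = 0.41 by edgeR).

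Aplnr, the receptor, was spread more widely than its ligand. It had a lowest, median and highest pool value of 224, 342 and 476 CPM in tip-like cells and 195, 287 and 325 CPM in the other capillary class. The ranges overlapped, though 7 of 8 pools were higher in the tip-like sum, and the log2 difference of 0.32 ± 0.22 did not pass the test (adjusted p = 0.39, edgeR). An Aplnr UMI was found in 51.5% of tip-like and 41.6% of other capillary cells, so receptor and ligand differ in how far they separate the capillary classes: Apln by 19.5-fold and Aplnr by 1.25-fold in the same fit.

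In venous cells Aplnr had a mean of 138 ± 110 CPM (SD, n = 6), 0.62 ± 0.31 below the other capillary class on the log2 scale, which missed the threshold (adjusted p = 0.19, edgeR). High endothelial cells lay below venous cells by a log2 difference of -1.58 ± 0.39 (adjusted p = 0.0015, edgeR), a fold of 2.99, in a contrast where 23.4% of genes and 5 of 7 members passed, Apln among them on 12 and 3 UMIs. With library 2 alone this Aplnr difference was -1.67 ± 0.58 and missed the threshold (adjusted p = 0.077, edgeR). Arterial cells held 24.0 ± 16.7 CPM (n = 8), 11.6-fold below the other capillary class (log2 difference -3.53 ± 0.33, adjusted p = 3.1e-13, edgeR), where 17.4% of genes and 6 of 7 members passed. Apln is counted among these 6 with 0 arterial UMIs. It entered the fit through its tip-like sums, so its call is not used. Lymphatic cells held 2.02 ± 1.73 CPM, with a UMI in 0.777% of cells. The stromal clusters had an Aplnr UMI in 10.7% of 121 cells and the blood-cell clusters in 11.3% of 71 cells, but 32.2% to 41.4% of the cells of those clusters also had a UMI of the endothelial gene Cdh5, so they are no clean background.

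**Figure D2:**
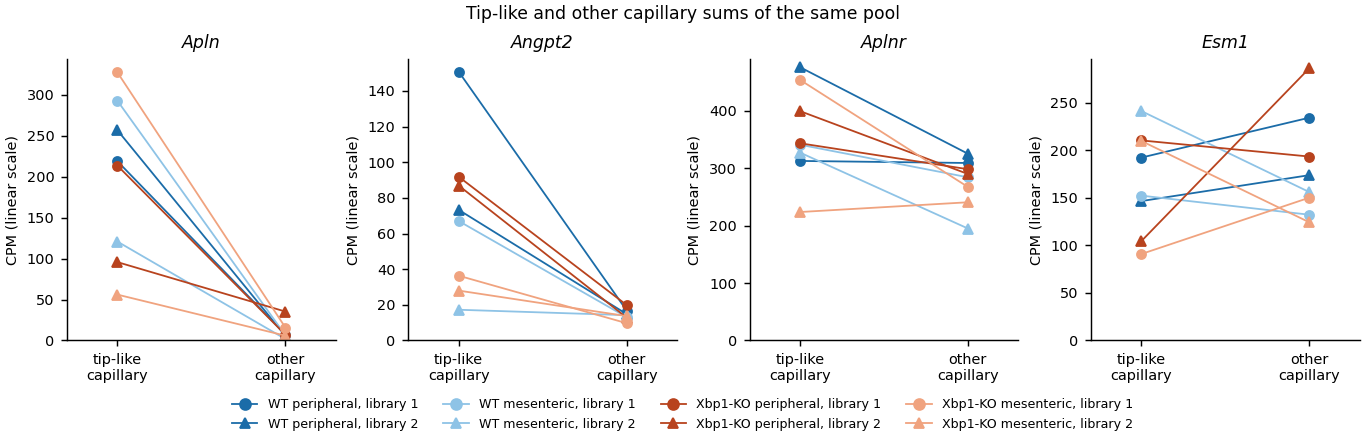
Lines join the tip-like and the other capillary sum of the same pool, in CPM on linear axes that start at 0, for Apln, Angpt2, Aplnr and Esm1. Apln and Angpt2 were higher in the tip-like sum of all 8 pools, Aplnr in 7 of 8 and Esm1 in 4 of 8.

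Angpt2, the TIE2 ligand made by endothelium itself, was highest in 2 classes, the tip-like capillary and the lymphatic class. The lowest, median and highest pool values were 17.2, 70.2 and 151 CPM in tip-like cells and 42.4, 66.9 and 93.9 CPM in lymphatic cells. The ranges of these 2 classes overlapped, and 5 of 8 pools were higher in the tip-like sum. Angpt2 entered the fit of all classes mainly through the sums of these 2, so the p-values of their contrasts are given as a description. Against the other capillary class (9.69, 13.9 and 19.9 CPM), tip-like cells were higher by a log2 difference of 2.45 ± 0.25, or 5.45-fold (adjusted p = 4.5e-11, edgeR), with an overlap of ranges at the lowest tip-like pool, where 1 UMI was counted.

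Lymphatic cells were higher in Angpt2 than the mean of the 5 blood classes by 1.37 ± 0.16 on the log2 scale, or 2.59-fold (adjusted p = 9.3e-11, edgeR). In that contrast 60.8% of all genes passed, so 6 of 7 members passing does not stand apart. Among blood classes Angpt2 was lowest in arterial cells, with 5 UMIs in 671 cells and 2.47 ± 3.13 CPM (n = 8), below other capillary cells in all 8 pools (log2 difference -2.46 ± 0.56, adjusted p = 6.1e-04, edgeR). With library 2 alone that value was -1.94 ± 0.79 and missed the threshold (adjusted p = 0.16). Venous cells lay above the other capillary class by 1.54 ± 0.42 (adjusted p = 0.0054, edgeR), with 18.3% of genes and 4 of 7 members passing, but from 24 UMIs in all, and with library 2 alone the value was 1.16 ± 0.81 (adjusted p = 0.56). High endothelial and venous cells did not differ beyond their spread (log2 difference -0.29 ± 0.41, adjusted p = 0.67, edgeR).

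Tek, which encodes TIE2, ran against its ligand angiopoietin-2 in the capillary bed. Its lowest, median and highest pool values were 52.8, 101 and 276 CPM in tip-like cells and 141, 155 and 196 CPM in the other capillary class, and 7 of 8 pools were lower in the tip-like sum. The log2 difference was -0.64 ± 0.17 (adjusted p = 0.0054, edgeR), a fold of 1.55, and it rested on library 1: with library 2 alone it was -0.21 ± 0.26 (adjusted p = 0.80). The highest tip-like value, 276 CPM, came from 16 UMIs in 14 cells of the WT mesenteric pool of library 2.

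Arterial and venous cells held the most Tek, with means of 213 ± 47.7 CPM (n = 8) and 212 ± 88.0 CPM (n = 6), which did not differ beyond their spread. Arterial cells were above the other capillary class by 0.39 ± 0.12 on the log2 scale (adjusted p = 0.019, edgeR), a call that was lost with library 2 alone (0.26 ± 0.18, adjusted p = 0.55) and with no filter on low counts (adjusted p = 0.12), and venous cells were not shown to be (0.22 ± 0.18, adjusted p = 0.47). High endothelial cells held the least, 46.2 ± 16.2 CPM (n = 7). They lay 3.67-fold below venous cells (log2 difference -1.88 ± 0.23, adjusted p = 1.9e-09, edgeR), with no overlap between 27.7 to 74.6 CPM in high endothelial and 141 to 380 CPM in venous pools. Lymphatic cells lay 2.15-fold below the mean of the blood classes (log2 difference -1.11 ± 0.10, adjusted p = 6.7e-14, edgeR), at 62.6 ± 9.43 CPM (n = 8).

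Tie1, the orphan partner of TIE2, was the most even of the 7 genes across classes. Its class means ran from 378 ± 55.6 CPM in other capillary cells through arterial (351), venous (322), tip-like (299) and lymphatic cells (247) to 188 ± 109 CPM in high endothelial cells, and the pool ranges of every class overlapped those of its neighbour in this order. The tip-like class was lower than the other capillary class by 0.38 ± 0.11 on the log2 scale (adjusted p = 0.0089, edgeR), but with library 2 alone by 0.22 ± 0.18 (adjusted p = 0.67), and without the pool block the adjusted p was 0.071. Venous cells were lower than other capillary cells by 0.36 ± 0.13 (adjusted p = 0.038, edgeR), lost under 4 of the 9 alternatives, among them library 2 alone (-0.10 ± 0.24). Lymphatic cells were lower than the blood classes by 0.42 ± 0.07 (adjusted p = 1.2e-06, edgeR). Arterial and other capillary cells were not shown to differ (-0.15 ± 0.09, adjusted p = 0.33, edgeR). The largest fold for Tie1 in any class contrast was 1.33, whereas the smallest called fold for Ptprb was 1.57.

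Ptprb, which encodes the phosphatase that acts on TIE2, had the same order of class means as Tek. Its lowest, median and highest pool values were 1141, 1596 and 2032 CPM in arterial cells, 594, 697 and 878 CPM in other capillary cells and 258, 310 and 534 CPM in tip-like cells. These 3 ranges did not overlap. Arterial cells were 2.15-fold above the other capillary class (log2 difference 1.10 ± 0.13, adjusted p = 8.1e-10, edgeR), and tip-like cells 2.22-fold below it (-1.15 ± 0.16, adjusted p = 1.6e-07). Venous cells were 1.57-fold above it (0.65 ± 0.16, adjusted p = 0.0015, edgeR), which missed the threshold with library 2 alone (0.49 ± 0.22, adjusted p = 0.26). Lymphatic cells were 2.04-fold below the mean of the blood classes (-1.03 ± 0.11, adjusted p = 9.7e-12, edgeR).

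Among the class contrasts tested, the largest fold of Ptprb was that between venous and high endothelial cells. Another 300 blood endothelial cells, left unnamed and out of every contrast, lay between them at 310 to 539 CPM per pool. Venous pools ran from 819 to 1915 CPM and high endothelial pools from 37.0 to 297 CPM, with no overlap. The log2 difference was -2.82 ± 0.19, or 7.08-fold lower in high endothelial cells (adjusted p = 1.8e-17, edgeR). After thinning to 2000 UMIs a Ptprb UMI was found in 85.5% of venous, 20.4% of high endothelial and 90.8% of arterial cells. High endothelial cells were called lower than venous cells also for Tek, Tie1 and Aplnr. Apln passed too, but it entered the fit through its tip-like sums and had 12 venous UMIs, 7 of them in 1 pool, against 3, so that call is not used. Tie1 was the weakest of these (-0.38 ± 0.14, adjusted p = 0.040, edgeR) and was lost under 7 of the 9 alternatives run, both single libraries included. Aplnr was not called there with library 2 alone (adjusted p = 0.077). The dissociation response genes were lower in high endothelial than in venous cells too (13 of 14 passed, median -1.08), and their part was not tested.

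Esm1, which encodes endocan, did not separate the tip-like class from other capillary cells in these nodes. Its lowest, median and highest pool values were 90.9, 172 and 241 CPM in tip-like and 124, 165 and 286 CPM in other capillary cells. The ranges overlapped, 4 of 8 pools were higher in the other capillary sum, and the log2 difference was -0.12 ± 0.18 (adjusted p = 0.75, edgeR). With hashtags called by a ratio of tag counts, the tip-like class was lower by 1.01 ± 0.19 (adjusted p = 2.7e-05, edgeR). Under that alternative 9761 cells entered the clustering and 585 were called tip-like, and what moved the value was not tested. Arterial cells held 135 ± 60.3 CPM (n = 8), lower than other capillary cells by 0.46 ± 0.16 (adjusted p = 0.039, edgeR), a call that was lost under 5 of the 9 alternatives, both single libraries included (-0.44 ± 0.25 and -0.47 ± 0.20).

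Outside capillaries and arteries Esm1 was close to absent. Venous cells held 1 UMI of 682343, a level 124-fold below other capillary cells with a counting interval of 22.3 to 4920, and high endothelial cells held 1 UMI of 3377397 (616-fold, interval 110 to 24400). Lymphatic cells held 11 UMIs in 11 of 3733 cells (0.295%). Apln was thus not detected in arterial cells where Esm1 was, and Aplnr was detected in venous cells where Esm1 had 1 UMI.

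Across all 45 sums of class and pool, the genes whose log2(CPM + 10) followed each member most closely are given as a description, since the sums share libraries and classes. Apln was most like Prnd (r = 0.907) and Adamts7 (0.846), and Prnd is a leading gene of the tip-like cluster. Aplnr was most like Scarb1 (0.873), Adgrl2 (0.852) and Gm13889 (0.850). Angpt2 was most like Smad1 (0.772), Tmsb10 (0.744) and Nectin2 (0.698), the lowest of the 7 sets of values. Tek was most like Ptprb (0.885), Syne2 (0.839) and Ece1 (0.828), and Ptprb was most like Adgrf5 (0.919), Ltbp4 (0.909) and Arid5b (0.887). Tie1 was most like Myct1 (0.861) and Selenow (0.843). Esm1 was most like Arap2 (0.938), Igfbp3 (0.938) and Notch4 (0.919). Among the members, Angpt2 had negative values with Tek (-0.564), Tie1 (-0.462) and Ptprb (-0.582), and Apln had 0.697 with Aplnr.

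Within the lymphatic class the angiopoietin and TIE genes were divided among its 5 clusters, which are named here by their leading gene and compared without a test, because clusters are drawn from the cells themselves. Angpt2 was highest in the cluster led by Ptx3, Mrc1 and Reln (369 cells), with 182 CPM in its lowest pool, a median of 288 and 329 in its highest. The cluster led by Ccl20 and Coch (1251 cells) had 0 to 8.51 CPM, with no overlap. The clusters led by Ackr4 (71.7 ± 27.7 CPM, n = 8), Igfbp5 (81.2 ± 58.1) and Marco (19.5 ± 10.8) lay between. The Ptx3 cluster was highest in 7 of 8 pools; the other pool, WT mesenteric of library 2, had 3 cells in it, too few for a value.

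Tek and Ptprb did not peak in the Ptx3 cluster. Tek was highest in the cluster led by Igfbp5 and Nts in all 8 pools (131 ± 38.5 CPM), and Ptprb in the Ackr4 cluster in all 8 (596 ± 99.4 CPM, lowest 430, highest 734). The Ccl20 cluster was low for all 3 genes, with 18.4 ± 11.5 CPM of Tek and 90.4 ± 36.6 CPM of Ptprb. Ligand, receptor and phosphatase thus peaked in 3 different lymphatic clusters.

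**Figure D3:**
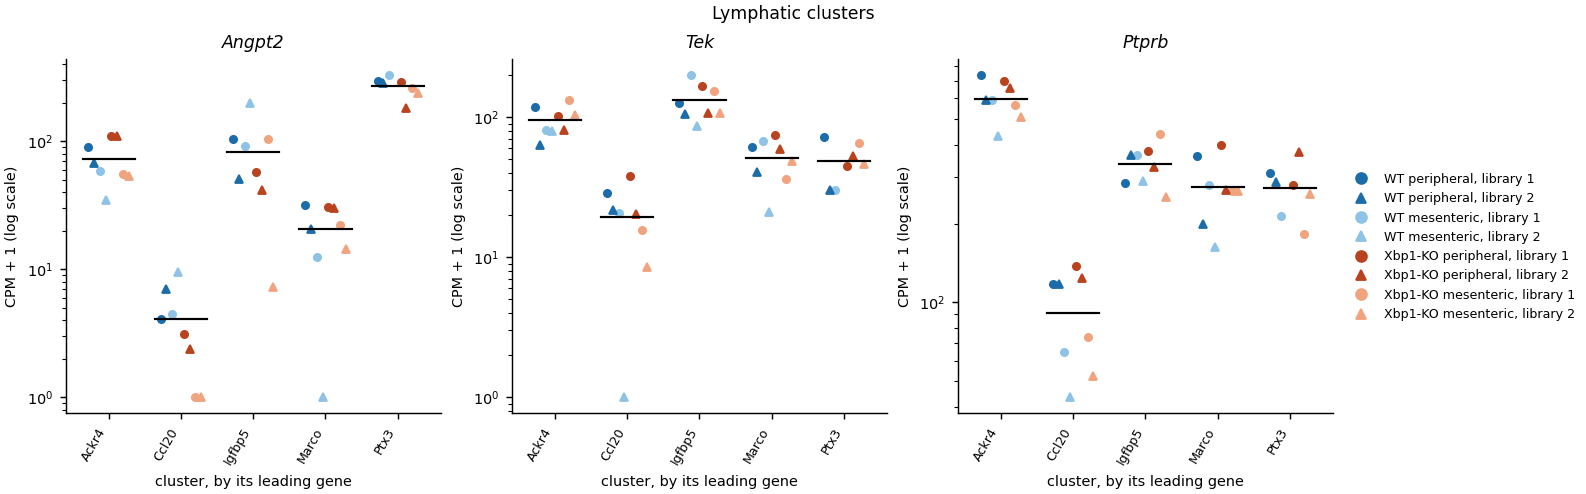
Points are pools with at least 5 cells in the cluster, in CPM plus 1 on a log axis, and black lines are means over pools. Angpt2 peaks in the Ptx3 cluster (182 to 329 CPM), Tek in the Igfbp5 cluster and Ptprb in the Ackr4 cluster, and the Ccl20 cluster is low for all 3.

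Within the other capillary class Esm1 varied by cluster, again given as a description. The cluster led by Penk and Itm2a (364 cells) had 298 CPM in its lowest pool, a median of 592 and 1020 in its highest, and the cluster led by Timp4, Lpl and Fabp4 (484 cells) 0 to 61.3 CPM, with no overlap. The Cxcl1 cluster had 279 ± 123 CPM (n = 7). The Penk cluster was highest in 6 of 8 pools; in the WT mesenteric pool of library 1 the Cxcl1 cluster was above it (345 against 298 CPM), and the WT mesenteric pool of library 2 had 3 Penk cells, too few for a value. Ptprb had the opposite extreme, 1152 ± 263 CPM in the Timp4 cluster, the highest of the class in 7 of 8 pools, against 645 ± 223 CPM in the Penk cluster. The Apln UMIs of this class were scattered: 30 of the 107 came from the Cxcl1 cluster of 1 pool, Xbp1-KO peripheral of library 2, and 12 more from its Timp4 cluster. In the Penk cluster, the richest in Esm1, Apln was at 0 in 6 of the 7 pools with at least 5 cells.

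**Figure D4:**
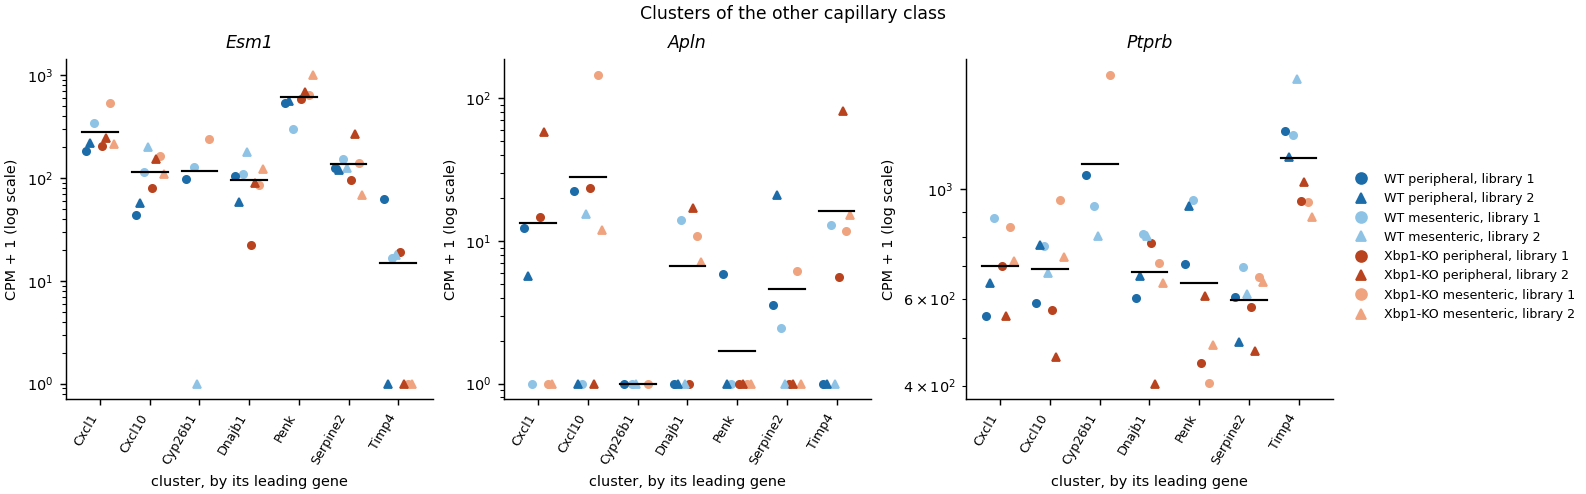
Points are pools with at least 5 cells in the cluster, in CPM plus 1 on a log axis, and black lines are means. Esm1 peaks in the Penk cluster (298 to 1020 CPM), Ptprb in the Timp4 cluster, and the highest Apln values come from single pools.

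Whether loss of Xbp1 changed these genes was asked as the mean Xbp1-KO minus WT difference over both nodes, in each class. None of the 30 member values that could be tested passed in any of the 6 classes (edgeR's quasi-likelihood test; 3 had an unadjusted p under 0.05), and DESeq2 called none either. The background was low too: 0.0107% of 37294 tests over all genes and the 6 classes passed. With the library as a block no member passed either, while 82 genes did in lymphatic cells (0.767%), 15 in other capillary cells (0.159%), and 0 to 7 in each of the other 4 classes. The adjusted p-values of the members were 0.76 or higher. In the other capillary class the log2 differences of 6 members lay between -0.12 and 0.10, with SEs of 0.14 to 0.26. A missed threshold does not show that the genotypes act alike; it bounds differences only by these errors.

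The 3 values under an unadjusted p of 0.05 were Esm1 in arterial cells, Ptprb in high endothelial cells and Apln in other capillary cells. Esm1 in arterial cells was 113 to 251 CPM in the WT pools and 53.2 to 131 CPM in the Xbp1-KO pools. It was lower in the Xbp1-KO pool of the same library and node in 3 of 4 cases (log2 difference -0.74 ± 0.27). Ptprb in high endothelial cells was lower in the Xbp1-KO pool in 2 of 3 such cases (-0.94 ± 0.39, adjusted p = 0.76, edgeR). Apln in other capillary cells was 1.77 to 7.29 CPM in WT and 5.86 to 35.3 CPM in Xbp1-KO pools (log2 difference 1.25 ± 0.56). With library 2 alone that Apln value was 2.47 ± 0.63 and passed (adjusted p = 0.046, edgeR), where 44 UMIs in the Xbp1-KO peripheral pool stood against 3 in WT peripheral.

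In the tip-like class, where Apln is high, its levels were 121 to 292 CPM in WT and 56.0 to 327 CPM in Xbp1-KO pools. The groups overlapped, and the Xbp1-KO pool was the lower in 3 of 4 comparisons within library and node (log2 difference -0.36 ± 0.37, adjusted p = 0.999, edgeR). Angpt2 did not pass the filter on low counts in that class, so its genotype difference there was not tested; its pools ran from 17.2 to 151 CPM in WT and from 27.99 to 91.9 CPM in Xbp1-KO. The genotype difference was also set between nodes: none of the 30 member values passed for genotype by tissue (edgeR; none had an unadjusted p under 0.05), against a background of 0.0456% of tests.

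**Figure D5:**
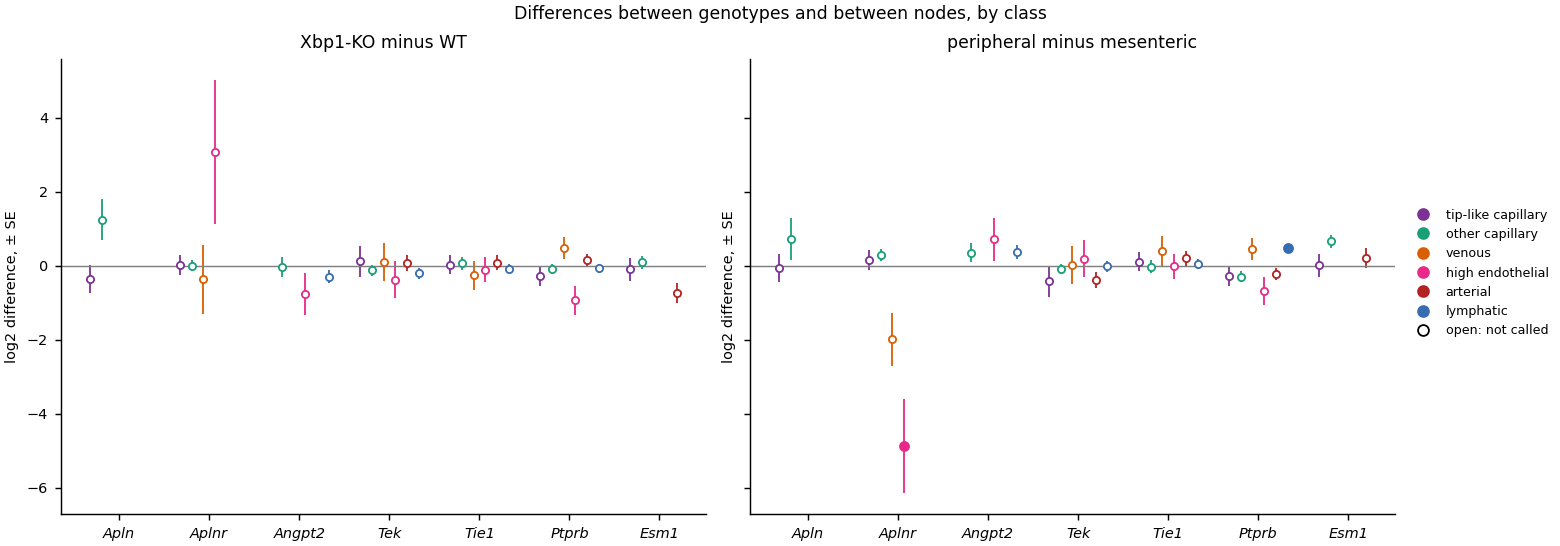
The left panel gives Xbp1-KO minus WT and the right panel peripheral minus mesenteric, as log2 differences with their SE, for each gene and class tested; filled points passed an adjusted p of 0.05. No genotype difference passed, and 2 node differences did, Aplnr in high endothelial and Ptprb in lymphatic cells.

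Between peripheral and mesenteric nodes, 2 members passed. Ptprb was higher in peripheral lymphatic cells, at 355 to 378 CPM against 228 to 276 CPM in mesenteric pools, with no overlap. The log2 difference was 0.47 ± 0.12, or 1.39-fold (adjusted p = 0.038, edgeR), and 4.74% of genes passed in that class, 12.8% with the library as a block (0.47 ± 0.10, adjusted p = 0.0027). With library 2 alone it was 0.61 ± 0.23 and missed the threshold (adjusted p = 0.20). The mix of clusters differed along with it: the Ackr4 cluster, highest in Ptprb, made up 27.2% to 39.8% of peripheral and 14.0% to 20.7% of mesenteric lymphatic cells. Without that cluster the class still held 220 to 247 CPM in peripheral and 155 to 213 CPM in mesenteric pools. Within single clusters the node ranges of Ptprb did not overlap in the Ackr4 (590 to 734 CPM peripheral, 430 to 589 mesenteric), Ptx3 (279 to 373 and 181 to 257) and Ccl20 clusters (116 to 137 and 42.6 to 72.7). They overlapped in the Marco (198 to 396 and 162 to 280 CPM) and Igfbp5 clusters (284 to 377 and 252 to 437), and the Igfbp5 means were 338 and 336 CPM. Angpt2 in the same cells was 63.5 to 78.8 CPM in peripheral and 42.4 to 93.9 CPM in mesenteric pools, which overlapped (0.37 ± 0.18, adjusted p = 0.28, edgeR); with library 1 alone that value was 0.60 ± 0.15 and passed (adjusted p = 0.033). The Ptx3 cluster, highest in Angpt2, made up 10.3% to 12.1% of peripheral and 3.56% to 10.9% of mesenteric lymphatic cells. Without it Angpt2 was 43.4 to 47.5 CPM in peripheral and 15.8 to 83.6 CPM in mesenteric pools, and within library 1 45.7 and 46.9 CPM against 31.2 and 32.2 CPM.

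Esm1 in other capillary cells was higher in all 4 peripheral pools, 174 to 286 CPM, than in the mesenteric pools, 124 to 156 CPM. The log2 difference of 0.66 ± 0.18 missed the threshold without a block (adjusted p = 0.12, edgeR; 1.11% of genes passed) and passed with the library as a block (0.69 ± 0.14, adjusted p = 0.0042; 4.80% of genes passed). It also passed in each library alone (0.64 ± 0.12 in library 1 and 0.78 ± 0.16 in library 2, adjusted p = 7.3e-05 and 0.0039). The Penk cluster made up 10.3% to 21.9% of the class in peripheral and 1.51% to 4.73% in mesenteric pools, and without it the values were 128 to 187 CPM and 113 to 140 CPM, which overlapped. The block fit also called Ptprb, lower in peripheral nodes (-0.29 ± 0.08, adjusted p = 0.042), at 594 to 732 CPM against 661 to 878 CPM, and so did library 1 alone (-0.39 ± 0.08, adjusted p = 9.1e-04). Apln in these cells went opposite ways in the libraries, at -0.44 ± 0.47 in library 1 (adjusted p = 0.78) and 2.42 ± 0.50 in library 2 (adjusted p = 0.0026, edgeR). The class was made of different clusters in the 2 nodes: the Cxcl1 cluster was 31.1% to 37.7% of peripheral and 1.12% to 5.29% of mesenteric cells, and the heat-shock cluster led by Dnajb1 2.76% to 8.78% and 31.0% to 70.3%. In the tip-like, venous and arterial classes none of the 6, 4 and 4 members that could be tested passed between nodes (edgeR), where 0.340%, 0.468% and 0.379% of genes passed; the lowest adjusted p was that of Aplnr in venous cells (-1.99 ± 0.72, adjusted p = 0.39). Tek and Tie1 could be tested in all 6 classes, with log2 differences of -0.42 to 0.19 and of -0.02 to 0.40, and neither passed in any (edgeR). Angpt2 in tip-like cells, too low to test, was 151, 91.9, 86.9 and 73.3 CPM in the peripheral and 67.0, 36.3, 27.99 and 17.2 CPM in the mesenteric pools, with no overlap, from 11, 2, 2 and 1 UMIs in the latter.

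The other call between nodes was Aplnr in high endothelial cells, lower in peripheral nodes, at 0, 0 and 9.24 CPM in the 3 peripheral sums and 11.6, 11.7, 77.7 and 106 CPM in the mesenteric sums (log2 difference -4.87 ± 1.27, adjusted p = 0.033, edgeR; 0.486% of genes passed, 0.767% with the library block, where adjusted p = 0.012). The median over all genes in that fit was -0.391. The peripheral side rests on 8, 26 and 5 cells and 2 Aplnr UMIs. The call was lost under 6 of the alternatives run, and where Scrublet marks were ignored or hashtags were called by ratio the difference was near 0 (-0.0037 ± 0.68 and -0.28 ± 0.72). The pool of 2 cells left out for its size held 3 Aplnr UMIs. Aplnr passed the filter on low counts in this class through its mesenteric sums, where it is high. Another 300 blood endothelial cells, led by Ccl21a, Dclk1, Fut7 and Glycam1, were left unnamed and are not in this class. They held 204 to 263 CPM of Aplnr in peripheral and 125 to 259 CPM in mesenteric pools. How far the line between these cells and the class sets the low peripheral values was not tested.

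Among the mesenteric sums the Aplnr levels of high endothelial cells formed pairs that did not follow genotype. The Xbp1-KO pool of library 1 (109 UMIs in 114 cells) and the WT pool of library 2 (45 UMIs in 50 cells) were high at 106 and 77.7 CPM. The WT pool of library 1 (8 UMIs in 89 cells) and the Xbp1-KO pool of library 2 (9 UMIs in 74 cells) were low at 11.6 and 11.7 CPM. The high pools are those with Xist in 73.2% and 76.8% of their cells, and the low pools those with 1.77% and 0.115%. The peripheral pools did not follow this: the Xbp1-KO pool of library 1, with Xist in 82.5% of its cells, had 9.24 CPM of Aplnr, the WT pool of library 2, with 85.4%, had 0 CPM in 5 cells, and the 3 UMIs in the 2 cells left out came from a pool with 0.608%. The median depth per cell was 8057 and 10961 UMIs in the high pools and 7275 and 10137 in the low pools. With library 1 alone, the Xbp1-KO minus WT difference of Aplnr in these cells was called at 3.36 ± 0.60 (adjusted p = 1.3e-05, edgeR), a direction that library 2 does not share. What sets the pairs apart was not tested.

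Of 11 other apelin-system genes (processing enzymes, peptidases, and G-protein and arrestin partners of the receptor), 6 could be tested between classes. In tip-like cells 2 of these were higher than in other capillary cells, Arrb1, a beta-arrestin (0.72 ± 0.24, adjusted p = 0.035), and Gnai2, a G-protein subunit (0.47 ± 0.09, adjusted p = 8.4e-05, edgeR), and none was lower, where 15.1% of all genes passed; the median over the 6 was -0.095, against -0.019 over all genes. Arrb1 was higher still in venous cells (2.20 ± 0.23, adjusted p = 3.7e-11). Mme, the peptidase neprilysin, which cleaves apelin, was higher in peripheral than mesenteric lymphatic cells (1.38 ± 0.22, adjusted p = 0.0024), the 1 of 9 genes tested there to pass, against 4.74% of all genes.

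Of 18 other angiopoietin and TIE2 pathway genes, 7 could be tested between classes, and none passed in either direction in tip-like cells (median log2 difference -0.051), against 15.1% of all genes. In arterial cells Nos3, the endothelial nitric oxide synthase (0.88 ± 0.18, adjusted p = 1.5e-04), and Nck1, an adaptor (0.46 ± 0.11, adjusted p = 8.4e-04), were higher than in other capillary cells, and Foxo1, the transcription factor held in check by TIE2 signalling, was lower (-0.36 ± 0.12, adjusted p = 0.026, edgeR); 17.4% of all genes passed there. In high endothelial cells Nos3 (-1.21 ± 0.39, adjusted p = 0.017) and Foxo1 (-0.87 ± 0.18, adjusted p = 1.1e-04, edgeR) were lower than in venous cells and the other 5 did not pass, a share near the 23.4% of all genes.

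All 7 VE-cadherin junction genes, whose proteins VE-PTP acts beside, could be tested. In tip-like cells Jup, or plakoglobin (-1.10 ± 0.16, adjusted p = 7.6e-07), and Fgd5 (-0.57 ± 0.14, adjusted p = 0.0026, edgeR) were lower than in other capillary cells, the other 5 did not pass, and the median was -0.111; 15.1% of all genes passed in that contrast. Jup was lower in high endothelial than in venous cells too (-1.60 ± 0.41, adjusted p = 0.0023), as was Ctnnb1, or beta-catenin (-0.68 ± 0.14, adjusted p = 1.6e-04, edgeR), 2 of 7 where 23.4% of all genes passed. Of 9 hypoxia target genes, 4 could be tested in tip-like cells and 1 passed: Adm, adrenomedullin, was higher (2.38 ± 0.27, adjusted p = 1.2e-09), with a median of 0.010 over the 4, against the same 15.1% of all genes. Vegfa, the main ligand that drives sprouting, was higher in arterial than in other capillary cells (2.14 ± 0.35, adjusted p = 3.0e-06) and in lymphatic than in blood classes (3.36 ± 0.17, adjusted p = 1.5e-24, edgeR). No gene of these 4 lists passed for genotype in any class (edgeR).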

How the data were processed

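Raw UMI counts per gene, hashtag and cell barcode of 2 droplet libraries were analysed as the authors deposited them. Per the file headers, the matrices came from Cell Ranger 6.0.1; the submitters' processing notes name Cell Ranger 6.1 and mm10, and the labels' protocols name both a v2 and a 3′ v3 kit. The CPM values were computed here from these deposited counts. The members and gene lists were chosen with earlier results of these data known.

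Hashtags were called with Seurat 5.3.0 (HTODemux, quantile 0.99), leaving 9476 single-tag barcodes. Barcodes with under 500 genes or over 10% mitochondrial UMIs were left out, as were 53 and 5 that Scrublet marked in the libraries. Scrublet marked 24.85% and 1.54% of the multi-tag barcodes of the 2 libraries, so doublets within a hashtag may remain. Cells were clustered in scanpy 1.11.5 (30 components, 15 neighbours, Leiden resolution 1), and the 4142 capillary-like cells were clustered again. Clusters were named from marker lists, the genes of which count as detected in at least 10% of cells.

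Counts were summed per class and pool (at least 5 cells) and tested with edgeR 4.0.16 (quasi-likelihood, filterByExpr, TMM, Benjamini-Hochberg at 0.05), with pool as a block between classes and none between genotypes or nodes. The labels tie pools to libraries, so the library block is given where it changes a call. In other capillary cells, deviations of the same library correlated at 0.454 and 0.497 between the nodes of 1 genotype and at 0.192 to 0.347 across genotypes. In lymphatic cells these values were 0.385 and 0.381, and 0.092 to 0.187. The remaining classes had 0.024 to 0.209. Nodes of 1 genotype and library were thus the most alike in these 2 classes, and no fit paired them. Shares of cells were also computed at 2000 UMIs per cell. Intervals are exact binomial at 95%, and intervals and the floor of 3 counts cover counting error only. Alternatives were RLE scaling, no filter, DESeq2 1.42.0, the library block, each library left out, hashtags by ratio (at least 10 UMIs and 3-fold), doublets kept and resolution 2. All 7 members were carried through every comparison; of the other lists, genes past the threshold are named up to 5 a list, and for likeness the 3 genes with the highest r among 10078. Some genes that this rule names are not reported here. The scripts were tested on simulated data. Columns of samples outside the series numbered 0.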

Additional observations from a re-analysis of the deposited data

Results flagged for a closer look

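Dixon's criterion marks 1 pool that stands apart from the rest of its class. With normally spread values chance meets it in about 1 in 20 groups. Where only 1 pool is above 0 it is met by construction, so that rate does not apply to the sparse genes here. It was met in 12 of the 41 groups of pools that could be examined. Apln gave 4 of these: 35.3 CPM in other capillary cells of the Xbp1-KO peripheral pool of library 2, 44.4 CPM in venous cells, and 4.62 and 0.458 CPM in high endothelial and lymphatic cells, where the other pools were near 0. Tek was high at 276 CPM in tip-like and 196 CPM in other capillary cells, in the WT mesenteric pools of library 2 and library 1, respectively. Tie1 was low at 210 CPM in the tip-like cells of the Xbp1-KO mesenteric pool of library 2 and high at 415 CPM in 8 high endothelial cells. Aplnr reached 347 CPM in venous cells and Angpt2 93.2 CPM in high endothelial cells. The Esm1 values of 18.1 CPM in venous and 1.31 CPM in high endothelial cells were 1 UMI each.

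Cells that entered no comparison also held the members. The 300 blood endothelial cells that were left unnamed were led by Ccl21a, Dclk1, Fut7 and Glycam1. Their pooled levels were 209 CPM for Aplnr, 25.2 CPM for Angpt2, 117 CPM for Tek, 316 CPM for Tie1, 373 CPM for Ptprb, 20.2 CPM for Esm1 and 2.88 CPM for Apln. In the 40 dividing cells they were 32.0 CPM for Apln, 64.0 CPM for Aplnr, 117 CPM for Angpt2, 60.5 CPM for Tek, 352 CPM for Tie1, 238 CPM for Ptprb and 14.2 CPM for Esm1.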

How the results depend on the processing

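Between nodes, 2 member values passed in the chosen fit, 1 under RLE scaling, under DESeq2 and with hashtags called by ratio, and 4 with the library as a replicate block. With an Xist term beside that block, chosen after seeing the data, 4 passed. Leaving out each library in turn gave 2 to 4. For genotype 0 passed, and 1 with either library left out (of 21 and 33 values tested). For genotype by tissue 0 passed under every alternative run; leaving out a library gives no test of it. Between classes, leaving out a library gave 3 to 5 calls for tip-like against other capillary cells (5 with both), 2 to 5 for arterial (6), 1 to 4 for venous (4), 2 to 4 for high endothelial against venous (5) and 5 for lymphatic cells (6). Of the 28 member values called, 13 of 27 kept their call with library 1 left out, 24 of 28 with library 2 left out, and 22 of 26 without the replicate block; under the block alternatives 2 of 2 did and under the others at least 25 of 28, and none turned its direction. The library block changed no call beyond those given with the results. Some alternatives changed the classes themselves. With doublets kept, 155 cells were tip-like, 1725 other capillary and 2229 unnamed, against 344, 3498 and 300 in the main setting. Resolution 2 left 1074 cells unnamed. Without library 1 the venous and high endothelial classes could not be fitted for genotype or node. Of the 42 shares of cells with a UMI, 30 left their binomial interval when cells were thinned. The depth of the tip-like sums limits what can be seen there: Angpt2 was too low to test between genotypes, and a few UMIs set Apln outside capillaries.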
